A study of Mus musculus with 4 samples.

Results

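The leptin and melanocortin feeding circuit of the hypothalamus was described through 10 genes chosen by symbol, out of 33696 genes listed in the deposited files: Lepr, Pomc, Agrp, Npy, Cartpt, Mc3r, Mc4r, Mrap2, Npy1r and Npy2r, each with 1 identifier. All 10 passed the filter on low counts in neurons. Levels, shares and co-expression were read in neurons, taken as nuclei with 3 or more unique molecular identifiers (UMIs) of Snhg11, a long noncoding RNA of neurons. After filtering, 36729 of 47910 nuclei met that rule, and 36429 of them carried no pituitary marks, as defined further on.

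The nuclei came from the hypothalamus of wild type C57BL/6J mice kept under conventional specific-pathogen-free conditions and sequenced as single-nucleus RNA libraries. A pair of libraries (Vehicle 1 and Vehicle 2) came from mice given vehicle, sterile water with 1% DMSO, and another pair (ImP 3 and ImP 4) from mice given imidazole propionate (ImP), a histidine product of gut bacteria, at 350 µg per day in the same vehicle. Both were delivered for 2 weeks by an osmotic minipump in the peritoneal cavity. Whether the libraries stem from different animals is not in the labels. The p-values therefore measure only the spread between libraries, which may be technical.

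In the arcuate nucleus, neurons that make Pomc, the precursor of α-MSH, restrain feeding, and a neighbouring population that makes Agrp and Npy drives it. α-MSH activates the melanocortin receptors Mc3r and Mc4r, while AgRP is their antagonist. Leptin from fat acts through its receptor Lepr on both populations, and NPY acts through Y1 and Y2 receptors, the latter also known as an autoreceptor on NPY neurons.

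The 4 libraries held 48060194 to 51945297 UMIs. Neurons without pituitary marks numbered 7561 in Vehicle 1, 8974 in Vehicle 2, 9711 in ImP 3 and 10183 in ImP 4, with median depths of 4416, 3659, 3300 and 3197 UMIs, so both ImP libraries were shallower per neuron than both vehicle libraries. The neuronal genes Rbfox3 and Syt1 lay between 156 and 180 CPM and between 1635 and 1757 CPM in these nuclei (CPM, UMIs of a gene per 1000000 UMIs summed over a class in a library). In oligodendrocyte-gated nuclei they lay between 11.7 and 15.6 CPM and between 134 and 174 CPM. Any pair of libraries shared 30 to 53 cell barcodes among kept nuclei. ImP 4 stood apart through pituitary transcripts: 537 of its kept nuclei met the pituitary rule (2 or more UMIs summed over Pitx1, Pou1f1, Tbx19 and Ghrhr, or 20 or more over Gh and Prl), against 12, 13 and 8 in Vehicle 1, Vehicle 2 and ImP 3. Of these, 273, 10, 11 and 6 also had 3 or more Snhg11 UMIs, and in Vehicle 2 the 13 nuclei held 20 Lepr UMIs. Gh, growth hormone of the pituitary, was at 1139 CPM in the remaining neurons of ImP 4. The other libraries had 9.66 CPM (Vehicle 1), 3.01 CPM (Vehicle 2) and 20.9 CPM (ImP 3). For that reason ratios of ImP to vehicle of the 10 genes in neurons are given with and without ImP 4.

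Pomc and Cartpt encode the 2 peptides found together in the feeding-restraining neurons. In neurons both genes stood higher in both ImP libraries than in both vehicle libraries, as did Mc4r and Mrap2. For Mc3r this order was close to a tie, with 1.188 CPM (43 UMIs) in ImP 3 and 1.181 CPM (45 UMIs) in Vehicle 1. Of all genes tested in neurons, 18.5% were separated in this way with ImP higher and 20.8% with ImP lower. In oligodendrocyte-gated nuclei Pomc and Cartpt were also higher in both ImP libraries. A link of the Pomc and Cartpt levels to promoter motifs was not tested. The sequences just upstream of the Pomc and Cartpt starts are shown. They are the 250 bases before the transcription start from RefSeq (build GRCm38.p6, which is not the GRCm39 build of the files), Pomc from chr12:3954695-3954944 on the plus strand and Cartpt from chr13:99900684-99900933 on the minus strand, 5′ to 3′, with motif matches in capitals.
Pomc: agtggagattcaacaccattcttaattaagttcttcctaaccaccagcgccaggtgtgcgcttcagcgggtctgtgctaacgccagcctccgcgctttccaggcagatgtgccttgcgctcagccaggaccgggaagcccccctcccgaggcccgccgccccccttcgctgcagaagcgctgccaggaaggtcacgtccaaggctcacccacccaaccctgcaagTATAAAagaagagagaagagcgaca
Cartpt: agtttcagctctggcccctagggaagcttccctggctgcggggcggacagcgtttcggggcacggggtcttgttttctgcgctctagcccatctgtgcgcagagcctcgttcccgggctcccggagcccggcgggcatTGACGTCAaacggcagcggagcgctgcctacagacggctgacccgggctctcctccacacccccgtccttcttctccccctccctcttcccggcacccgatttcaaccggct
The capitals mark TATAAA, the TATA box, which begins at position -25 before the Pomc start, and TGACGTCA, the cAMP response element, which begins at position -112 before the Cartpt start. Over both strands of all 32851 promoters of this length in the table, TATAAA was found in 12.4% and TGACGTCA in 1.55%. The STAT motif TTCNNNGAA, sought because the leptin receptor signals through STAT3, was found in 7.02% of them and in neither of these windows. Promoters of 8 of the 10 genes were in the table, and among those 8 only Pomc held TATAAA and only Cartpt held TGACGTCA.

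Pomc differed widely between libraries. Its level in neurons was 30.3 CPM in Vehicle 1, 28.5 in Vehicle 2, 47.5 in ImP 3 and 228.5 in ImP 4, so that ImP 4 stood far above the other libraries and both ImP libraries lay above both vehicle libraries. In oligodendrocyte-gated nuclei, a glial class in which the gene should be off, the level was higher still in every library, at 42.0, 46.3, 87.2 and 506 CPM in the same order. Astrocyte-gated nuclei held 26.3, 44.2, 70.5 and 510 CPM. At least 1 Pomc UMI was present in 8.17%, 7.92%, 12.4% and 48.4% of neurons and in 6.45%, 6.33%, 10.8% and 47.2% of oligodendrocyte-gated nuclei, although the latter were shallower, with medians of 1395, 1223, 1234 and 1264 UMIs. A neuron with 1 or 2 Pomc UMIs is therefore read as background and not as expression.

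**Figure D1:**
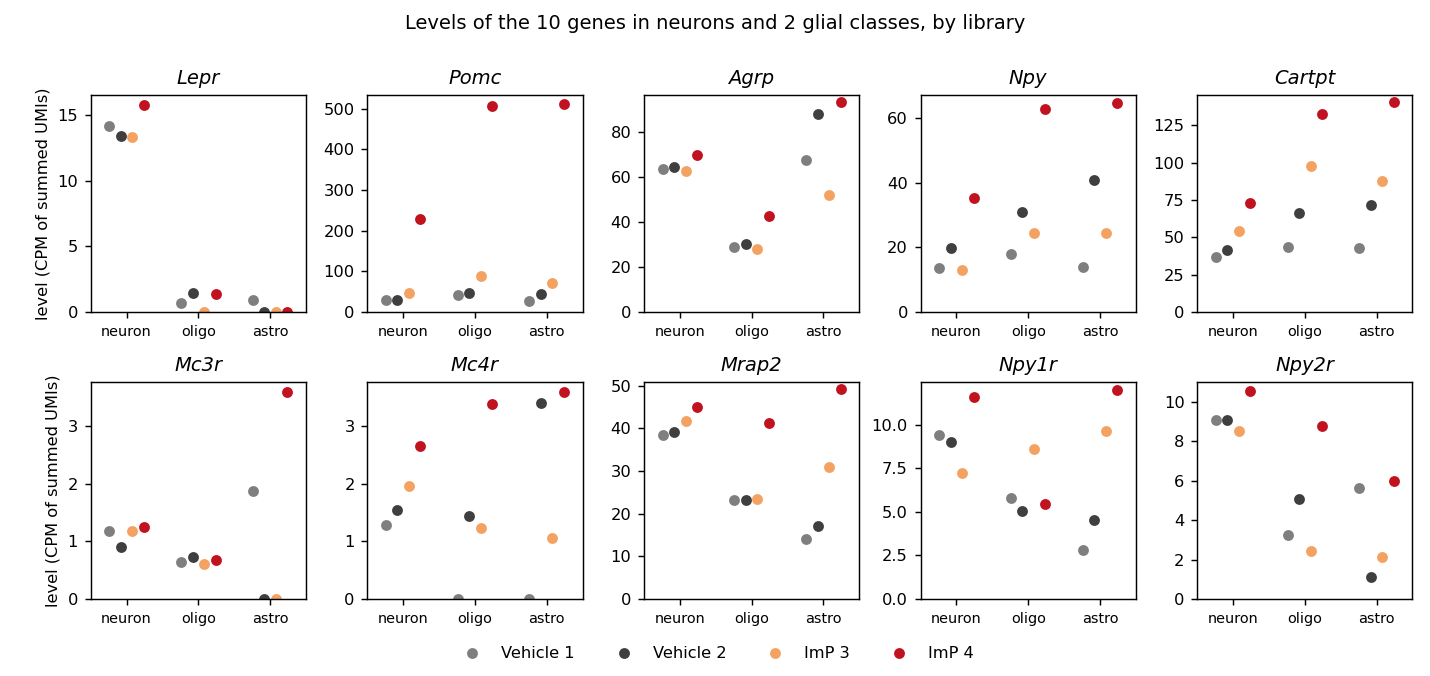
Level (CPM of UMIs summed per class and library, linear axes that start at 0) of each of the 10 genes in neurons without pituitary marks, oligodendrocyte-gated (oligo) and astrocyte-gated (astro) nuclei, 1 point per library. Lepr is near 0 in both glial classes, while Pomc, Npy and Cartpt are as high in glia as in neurons in most libraries, and ImP 4 is the highest library for Pomc in all 3 classes.

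Neurons with 10 or more Pomc UMIs, called Pomc-rich here, were found in every library, though in the ImP libraries they also held pituitary transcripts. In Vehicle 1, 18 neurons had 10 or more Pomc UMIs and 6 had exactly 3. In Vehicle 2 the same counts were 16 and 5, so in the vehicle libraries the neurons rich in Pomc outnumbered those at 3 UMIs. In ImP 3 they were 6 and 11, and in ImP 4 33 and 265. The 6 of ImP 3 held Tbx19 at 60.4 CPM, Gh at 544 CPM and Snhg11 at 4110 CPM. In the 33 of ImP 4 the levels were 13.5, 964 and 6457 CPM. In ImP 3 the Gh level rested on 9 UMIs and that of Tbx19 on fewer. The Gh level of the 33 lay below the 1139 CPM of all neurons of ImP 4, so it did not set them apart. In the vehicle libraries Tbx19 and Gh were at 0 in these neurons and Snhg11 at 8749 and 7883 CPM. With a wider pituitary gate (1 factor UMI or 5 hormone UMIs) 18, 16, 5 and 7 such neurons were left in Vehicle 1, Vehicle 2, ImP 3 and ImP 4. Among the 13605 kept nuclei of ImP 4 that gate also took 8650 with fewer than 10 Pomc UMIs. Whether the Pomc-rich neurons it removed were pituitary cells was not tested. At 10 or more UMIs, Pomc neurons made up 0.238%, 0.178%, 0.0618% and 0.324% of neurons in Vehicle 1, Vehicle 2, ImP 3 and ImP 4, and the groups overlapped. At 3 or more UMIs the numbers were 43, 42, 24 and 419. No oligodendrocyte-gated nucleus reached 3 Pomc UMIs in Vehicle 1, Vehicle 2 or ImP 3, where 0 of 992, 0 of 1011 and 0 of 1200 allow shares of up to 0.302%, 0.297% and 0.250%, but 35 of 1052 did in ImP 4, which is 3.33% beside 4.12% of its neurons. In ImP 4 a threshold of 3 Pomc UMIs thus did not set neurons apart from glia.

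**Figure D2:**
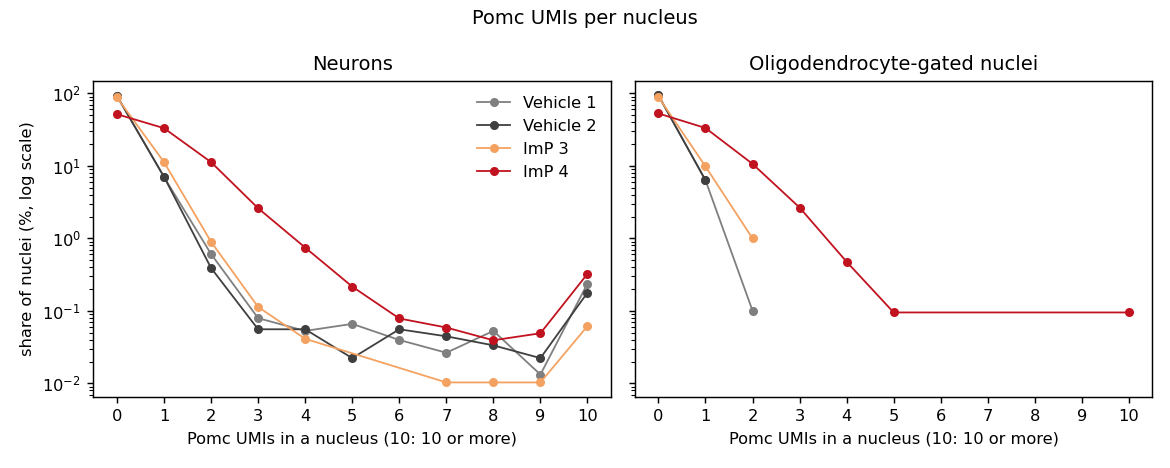
Share of nuclei (%, log axis) with each number of Pomc UMIs, in neurons without pituitary marks and in oligodendrocyte-gated nuclei, 1 line per library, with 10 standing for 10 or more and shares of 0 not drawn. ImP 4 lies above the other libraries from 1 to 4 UMIs in both classes, and all 4 libraries have neurons at 10 or more.

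The share of the Pomc UMIs of ImP 4 in pituitary-marked nuclei depended on the gate. Of the 12909 Pomc UMIs in its kept nuclei, 14.8% lay in pituitary-marked nuclei, of which 10.6 percentage points were in 32 nuclei with 10 or more. With the wider gate the share was 73.5%, but that gate also took 8650 nuclei with fewer than 10 Pomc UMIs. By the first gate, neurons with 10 or more UMIs held 10.8%, neurons with 3 to 9 held 10.7%, and neurons with 1 or 2 held 43.8%. A further 16 nuclei outside both classes had 10 or more Pomc UMIs and held 4.61%, and no such nucleus was found in the other libraries. The 32 pituitary-marked nuclei carried Tbx19, the factor that specifies Pomc cells of the pituitary, at 999 CPM. The 33 Pomc-rich neurons of the same library carried it at 13.5 CPM, and Snhg11 stood at 1488 against 6457 CPM. Tbx19 is part of the pituitary rule and Snhg11 of the neuron rule, so the gates set both contrasts in part. In Vehicle 1, 2 pituitary-marked nuclei with a median of 134 Pomc UMIs held 17.1% of the library's Pomc UMIs, and in ImP 3 another 2 with a median of 273.5 held 20.8%. Those nuclei carried Pax7, known from the Pomc cells of the intermediate lobe, at 500 and 164 CPM, against 33.3 CPM in the 32 nuclei of ImP 4. Each of these Pax7 levels rested on few UMIs, so the contrast is uncertain.

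The number of Pomc UMIs per Gh UMI in ImP 4 was of similar size in the gated classes without pituitary marks. The ratio was 0.201 in neurons, 0.184 in astrocyte-gated, 0.168 in oligodendrocyte-gated, 0.162 in oligodendrocyte precursor (OPC)-gated and 0.185 in microglia-gated nuclei. It was 0.311 in nuclei assigned to no class and 0.0541 in pituitary-marked nuclei. Gh is part of the pituitary rule, so the gate set the contrast with pituitary-marked nuclei in part. After nuclei with 10 or more Pomc UMIs were left out, the ratio was 0.168 in neurons, 0.166 in astrocyte-gated, 0.154 in oligodendrocyte-gated and 0.184 in unassigned nuclei. Neurons with fewer than 3 Pomc UMIs carried on average 0.580 Pomc UMIs in ImP 4, and oligodendrocyte-gated nuclei 0.564. Astrocyte-gated nuclei carried 0.576. In Vehicle 1 the means were 0.0826 in neurons, 0.0655 in oligodendrocyte-gated and 0.0461 in astrocyte-gated nuclei.

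**Figure D3:**
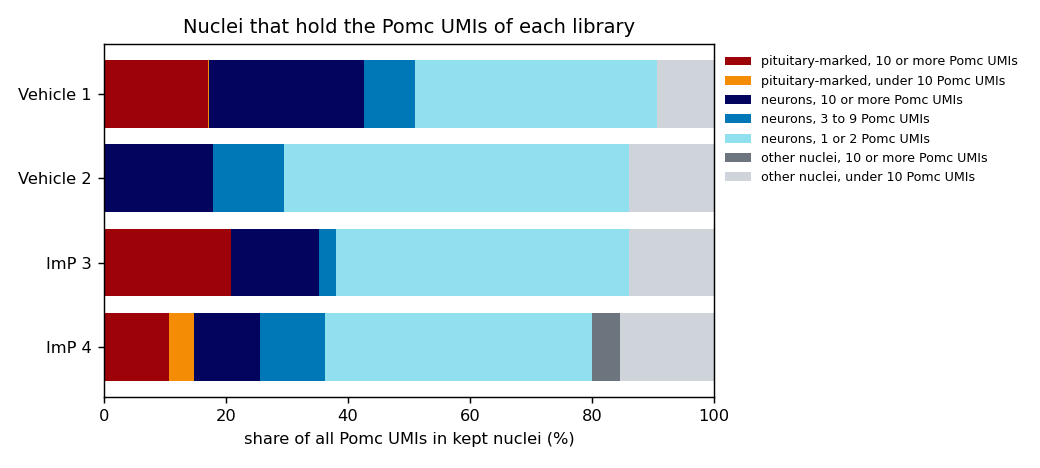
Share (%) of all Pomc UMIs in kept nuclei that lay in pituitary-marked nuclei, neurons without pituitary marks and other nuclei, split by the number of Pomc UMIs in the nucleus, 1 bar per library from 0 to 100%. Neurons with 1 or 2 UMIs held between 39.6% and 56.6% in every library, and ImP 4 alone has Pomc-rich nuclei outside both other classes.

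Agrp, the melanocortin antagonist, was spread over all classes, and the neurons of Vehicle 1, Vehicle 2, ImP 3 and ImP 4 held 63.6, 64.8, 62.8 and 70.1 CPM. The groups overlapped. Astrocyte-gated nuclei held 67.6, 88.4, 52.3 and 93.6 CPM, above neurons in each library but ImP 3, and oligodendrocyte-gated nuclei 29.1, 30.4, 28.2 and 42.7 CPM. At least 1 Agrp UMI was present in 25.6%, 22.2%, 19.8% and 20.7% of neurons, but only 78, 66, 43 and 78 neurons reached 3, and these held 10.7%, 9.30%, 6.33% and 11.5% of the neuronal Agrp UMIs. Most Agrp counts therefore lay outside neurons that could be called Agrp neurons. In a GENCODE annotation of the older build GRCm38 (release M21), the Agrp gene spans 70696 bases and overlaps 2 genes on the same strand and 5 on the opposite one, Ctcf and Ripor1 among them. Its shortest transcript spans 1601 bases. Neither the annotation release behind the deposited counts nor the handling of intronic reads is stated in these sources, so Agrp counts are uncertain, and none of the other 9 genes overlaps another gene in that annotation.

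Npy, the orexigenic peptide of the same neurons, was at 13.5, 19.9, 13.1 and 35.5 CPM in neurons of Vehicle 1, Vehicle 2, ImP 3 and ImP 4. ImP 4 was the highest library and ImP 3 the lowest. Oligodendrocyte-gated nuclei were at 18.1, 31.1, 24.6 and 63.0 CPM, above neurons in each library and in the same order except that Vehicle 1 and not ImP 3 was lowest. Neurons with 3 or more Npy UMIs numbered 34, 40, 16 and 70 and held 32.1%, 22.5%, 12.9% and 21.5% of the neuronal Npy UMIs.

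Cartpt, the precursor of the CART peptides, was at 37.1, 41.3, 54.0 and 72.9 CPM in neurons, so both ImP libraries lay above both vehicle libraries. Oligodendrocyte-gated nuclei had the same order at a higher level, 43.3, 66.6, 97.6 and 133 CPM. Neurons with 3 or more Cartpt UMIs numbered 89, 67, 79 and 105, or 1.18%, 0.747%, 0.814% and 1.03% of neurons, and the groups overlapped by that measure. Among these carrying neurons the level was 938, 840, 908 and 933 CPM, again overlapping, while in the other neurons it was 24.0, 33.3, 44.8 and 60.5 CPM, separated by group. The level in carrying neurons is set in part by the threshold of 3 UMIs that chose them, so it is a description only.

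Lepr, the leptin receptor, was measured almost entirely in neurons. Its level there was 14.1, 13.4, 13.3 and 15.8 CPM (Vehicle 1 and 2, then ImP 3 and 4), against 0.646, 1.45, 0 and 1.36 CPM in oligodendrocyte-gated nuclei, which held 5 Lepr UMIs in all 4 libraries together. A Lepr UMI was found in 4.85%, 3.95%, 3.58% and 4.0% of neurons. After each neuron was thinned to 2000 UMIs and shallower ones were left out (751, 1487, 1943 and 2222 neurons), the shares were 2.31%, 2.02%, 2.32% and 2.70%, and Vehicle 1 was no longer the highest. Lepr is long and intron-rich, and no level is compared between genes here for that reason.

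Mc3r and Mc4r, the neural melanocortin receptors, were sparse. Mc3r gave 45, 34, 43 and 46 UMIs over all neurons of Vehicle 1, Vehicle 2, ImP 3 and ImP 4, or 1.18, 0.906, 1.19 and 1.25 CPM. Mc4r gave 49, 58, 71 and 98 UMIs, or 1.29, 1.55, 1.96 and 2.66 CPM, and the ImP libraries lay above the vehicle libraries. In oligodendrocyte-gated nuclei Mc4r had 0, 2, 2 and 5 UMIs, or 0, 1.45, 1.23 and 3.39 CPM, so at this depth neuronal Mc4r could not be separated from background in ImP 4. Mrap2, the accessory protein of melanocortin receptors, was at 38.5, 39.3, 41.6 and 45.1 CPM in neurons and at 23.3, 23.2, 23.3 and 41.3 CPM in oligodendrocyte-gated nuclei. Its neuronal levels were higher in both ImP libraries than in both vehicle libraries.

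The NPY receptors were at a low level, and a few of their UMIs were also found in glial classes. Npy1r, the Y1 receptor, was at 9.42, 9.01, 7.24 and 11.6 CPM in neurons and at 5.81, 5.07, 8.59 and 5.42 CPM in oligodendrocyte-gated nuclei, which in ImP 3 exceeded neurons. Astrocyte-gated nuclei held 2.82, 4.53, 9.61 and 12 CPM of Npy1r, above neurons in ImP 3 and ImP 4. The Npy1r levels rested on 9, 7, 14 and 8 UMIs in oligodendrocyte-gated and 3, 4, 9 and 10 in astrocyte-gated nuclei. Whether the glial UMIs are background was not tested. Npy2r, the Y2 receptor, was at 9.08, 9.11, 8.54 and 10.6 CPM in neurons. In oligodendrocyte-gated nuclei it was at 3.23, 5.07, 2.46 and 8.81 CPM, from 5, 7, 4 and 13 UMIs. For both receptors ImP 3 was the lowest and ImP 4 the highest library in neurons, so the groups overlapped. Their shares of neurons with a UMI were 4.06%, 3.44%, 2.56% and 3.72% for Npy1r and 3.78%, 3.32%, 2.94% and 3.47% for Npy2r.

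Co-expression was read within each library as the share of neurons carrying one gene that also carried a second, beside the share among neurons not carrying the first. A nucleus carried a peptide gene at 3 or more UMIs and a receptor gene or Mrap2 at 1 or more. These are descriptions with exact 95% binomial intervals, which cover counting error only, since nuclei are not replicates. Neurons carrying Lepr were deeper than the others, with medians of 6144 and 4336 UMIs in Vehicle 1. Of 90 ordered pairs, 46 had the higher share in carrying neurons in all 4 libraries and 28 had the higher level of the second gene in all 4. With the first gene read as deposited in neurons of 2000 or more UMIs and the second after thinning, 25 pairs still had the higher share in all 4 libraries.

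Agrp and Npy were carried by the same neurons more often than by others. Of neurons carrying Agrp, 14.1% (7.26 to 23.8%) carried Npy in Vehicle 1, 21.2% (12.1 to 33.0%) in Vehicle 2, 6.98% (1.46 to 19.1%) in ImP 3 and 20.5% (12.2 to 31.2%) in ImP 4. Among other neurons the shares were 0.307%, 0.292%, 0.135% and 0.534%. Npy stood at 135, 235, 109 and 255 CPM in Agrp-carrying neurons and at 11.7, 17.8, 12.5 and 33.2 CPM in the others. In ImP 3 the overlap rested on 3 nuclei, against 11, 14 and 16 in Vehicle 1, Vehicle 2 and ImP 4. At 5 or more Agrp UMIs only 5, 6, 5 and 11 neurons were left in Vehicle 1, Vehicle 2, ImP 3 and ImP 4. With Npy also at 5 or more, 2, 1, 0 and 2 of them carried it. Agrp-carrying neurons were deeper than the others, with medians of 5792 and 4394 UMIs in Vehicle 1. An Agrp UMI was present in 19.8% to 25.6% of neurons, and how many Agrp-carrying neurons held background Agrp only was not tested.

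Cartpt was shared with Pomc. No neuron carried both Npy and Cartpt in any library, where 34, 40, 16 and 70 Npy-carrying neurons allow shares of up to 8.82%, 7.50%, 18.8% and 4.29%, above the 0.750% to 1.18% of other neurons, so that a lack of overlap was not detectable at this depth. Of 43 and 42 Pomc-carrying neurons in Vehicle 1 and Vehicle 2, none carried Npy (which allows up to 6.98% and 7.14%), and 44.2% (29.1 to 60.1%) and 26.2% (13.9 to 42.0%) carried Cartpt, against 0.931% and 0.627% of other neurons. In ImP 3, 3 of 24 Pomc-carrying neurons carried Cartpt (12.5%, 2.66 to 32.4%), and in ImP 4 11 of 419 (2.62%, 1.32 to 4.65%). Npy was carried by 0 of those 24 and by 2 of those 419. Read from Cartpt, 21.3%, 16.4%, 3.8% and 10.5% of Cartpt-carrying neurons carried Pomc in Vehicle 1, Vehicle 2, ImP 3 and ImP 4.

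Lepr was more frequent in all 4 peptide populations than outside them. Among Pomc-carrying neurons 39.5% (25.0 to 55.6%) of Vehicle 1 and 45.2% (29.9 to 61.3%) of Vehicle 2 carried it, with 12.5% (2.66 to 32.4%) in ImP 3 and 7.16% (4.88 to 10.1%) in ImP 4. Among Cartpt-carrying neurons the shares were 34.8%, 25.4%, 24.1% and 19.0%, and among Npy-carrying neurons 20.6%, 27.5%, 25.0% and 32.9%. Agrp-carrying neurons held Lepr in 12.8%, 21.2%, 6.98% and 20.5%. Neurons outside these sets held Lepr in 3.42% to 4.78% of cases over the 4 sets and libraries, so each of these shares was above that of the other neurons of its library.

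Npy1r and Npy2r differed in where they were frequent. Npy2r was carried by 20.6%, 15.0%, 25.0% and 17.1% of Npy-carrying neurons and by 15.4%, 16.7%, 11.6% and 14.1% of Agrp-carrying neurons in Vehicle 1, Vehicle 2, ImP 3 and ImP 4, against 2.90% to 3.71% of other neurons. Npy1r was carried by 1, 0, 0 and 2 of the 34, 40, 16 and 70 Npy-carrying neurons, a share below that of the other neurons in each library. After thinning, though, Vehicle 1 was higher (3.03% against 1.74%). The 0 of 40 and 0 of 16 allow up to 7.50% and 18.8%, so a lower share was not detectable at this depth. In Pomc-carrying neurons Npy1r was present in 44.2% (29.1 to 60.1%), 33.3% (19.6 to 49.5%), 16.7% (4.74 to 37.4%) and 7.64% (5.28 to 10.6%), against 2.53% to 3.83% of other neurons. Cartpt-carrying neurons held Npy1r in 21.3%, 14.9%, 3.8% and 9.52%. Npy2r was not limited to Agrp and Npy neurons: it was carried by 11.6%, 9.52%, 16.7% and 3.82% of Pomc-carrying and by 7.87%, 10.5%, 8.86% and 9.52% of Cartpt-carrying neurons, above the other neurons of each library. Agrp-carrying neurons held Npy1r in 6.41%, 1.52%, 6.98% and 5.13%, above the other neurons in 3 of the 4 libraries. The difference between the receptors was not tested, since nuclei of 1 library share their source.

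**Figure D4:**
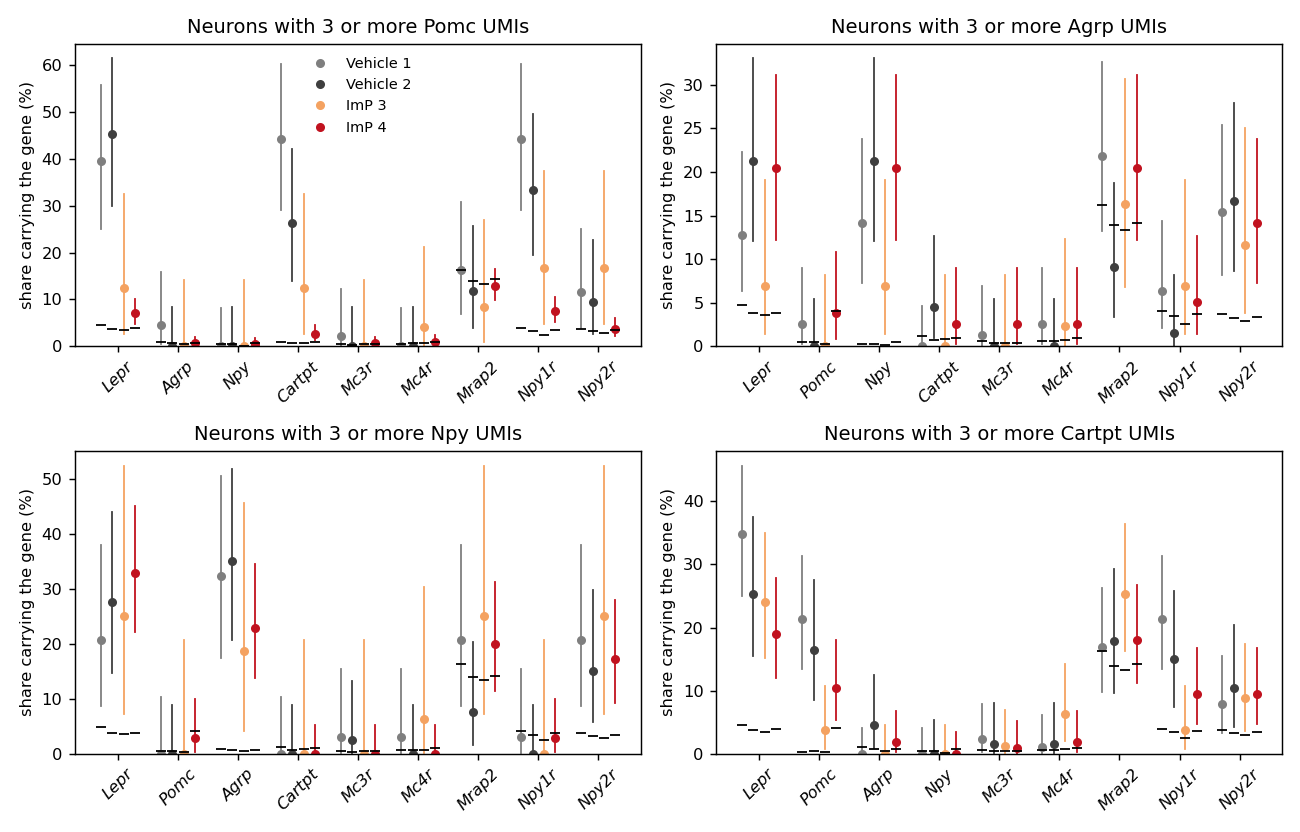
Share (%) of neurons carrying Pomc, Agrp, Npy or Cartpt (3 or more UMIs) that carried each other gene, 1 point per library with its exact 95% binomial interval, and a black dash for neurons not carrying the named peptide gene. Agrp and Npy neurons hold each other's gene, Lepr and Npy2r, Pomc neurons hold Lepr, Cartpt, Npy1r and Npy2r, and the ImP 4 points of the Pomc panel rest on 419 nuclei of which 33 had 10 or more Pomc UMIs.

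Mrap2 was carried widely. It was carried by 16.3%, 13.9%, 13.3% and 14.2% of all neurons in Vehicle 1, Vehicle 2, ImP 3 and ImP 4, and by 16.3%, 11.9%, 8.33% and 12.9% of Pomc-carrying neurons. Cartpt-carrying neurons held it in 16.9%, 17.9%, 25.3% and 18.1%, above the other neurons in all 4 libraries, but after thinning that held in 2 of them. Agrp-carrying neurons (21.8%, 9.09%, 16.3% and 20.5%) and Npy-carrying neurons (20.6%, 7.5%, 25.0% and 20%) were above the others in 3 of the 4 libraries, all but Vehicle 2. Among Lepr-carrying neurons its share was higher in all 4 libraries, between 14.1% and 17.7%, but its level was lower than in other neurons in all 4. Mc3r and Mc4r were carried by 34 to 46 and 47 to 96 neurons per library, too few to place them: Mc4r and Pomc shared 5 neurons over all libraries and Mc3r and Agrp 3.

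The genes whose pattern was most like a member's were those with the largest minimum, over the 4 libraries, of the log2 ratio of CPM in carrying over other neurons, among genes with 10 or more UMIs in the carrying neurons of each library. For Agrp the nearest was Npy, with ratios of 2.95 to 3.73, followed by Filip1, Acvr1c, Ghr (growth hormone receptor) and Plagl1. For Npy they were Ghr (2.79 to 3.20), Filip1, Prune2, Calcr (calcitonin receptor) and Agrp. For Lepr the first was Dnaaf6b (2.09 to 3.27). The gene most like Cartpt was Lepr, with 2.12 to 3.38, and Asb4 was second for Lepr (1.69 to 2.23), Cartpt (2.02 to 3.46) and Pomc (1.34 to 4.09). For Pomc, Plagl1 came first with 1.65 to 3.79. Npy5r, another NPY receptor, was nearest to Npy1r (1.06 to 1.68), and Corin (1.66 to 2.67) and Nr5a2 to Npy2r. For Mc3r, Mc4r and Mrap2 the first genes, Gpr149, Gzmk and Mup6, had minima of 0.84, 0.58 and 1.11.

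ImP was compared with vehicle on UMIs summed per library and class by the quasi-likelihood test of edgeR over all genes, and a gene passed at an adjusted p (Benjamini-Hochberg) below 0.05. In neurons without pituitary marks none of the 10 genes passed, beside 0% of 20422 genes tested. By edgeR 1637 genes had an unadjusted p below 0.05, 3 of the 10 among them, and DESeq2 passed 312 genes, of the 10 only Cartpt. With the pituitary-marked neurons left in, 0% of 20463 genes passed, 1644 had an unadjusted p below 0.05 and DESeq2 passed 314, again with Cartpt only. Over all kept nuclei 0% of 20935 genes passed, with 1847 below an unadjusted 0.05, 4 of the 10 among them, and 387 by DESeq2. CPM of both ImP libraries lay above both vehicle libraries in neurons for 5 of the 10 genes, Pomc, Cartpt, Mc3r, Mc4r and Mrap2, and below for 0 of 10, beside 18.5% and 20.8% of all genes tested. Mc3r was close to a tie, with 1.188 CPM in ImP 3 and 1.181 CPM in Vehicle 1.

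Pomc had the largest ratio in neurons without pituitary marks. Its log2 ratio of ImP to vehicle was 2.25 ± 0.65 (SE, n = 2 libraries a group), with an edgeR adjusted p of 0.410. With the pituitary-marked neurons it was 2.43 ± 0.59 with an edgeR adjusted p of 0.350, or 1.10 without ImP 4. In neurons without pituitary marks the ratio was 0.71 without ImP 4 and 2.98 without ImP 3. A fit with a lone ImP library holds no spread between ImP libraries, so only its ratio is given. With a block for the number that library names share across groups the ratio was 1.89. It passed (edgeR adjusted p = 0.00798), with fewer residual degrees of freedom than in the main fit. The level beside it in oligodendrocyte-gated nuclei moved alike, with a log2 ratio of 2.71 ± 0.51 and an edgeR adjusted p of 0.114, as did that in astrocyte-gated nuclei at 3.06 ± 0.64 with an edgeR adjusted p of 0.228. Without ImP 4 these ratios were 0.96 and 1.02. Gh stood at 1139 CPM in the ImP 4 neurons beside this, and the part of pituitary RNA in the Pomc ratio was not tested.

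Cartpt had a log2 ratio of 0.71 ± 0.15 in neurons without pituitary marks and an edgeR adjusted p of 0.340, while DESeq2 gave an adjusted p of 5.5e-04. The ratio was 1.05 ± 0.22 in oligodendrocyte-gated and 1.00 ± 0.27 in astrocyte-gated nuclei, with edgeR adjusted p of 0.130 and 0.246. Without ImP 4 it was 0.48 in neurons. With the library-name block it was 0.70 in neurons and passed (edgeR adjusted p = 1.4e-04), again with fewer residual degrees of freedom. In microglia-gated nuclei it was 0.40 ± 0.43, and in OPC-gated nuclei 0.78 ± 0.32 (edgeR adjusted p = 0.823 and 0.355). Without ImP 4 the ratio was 0.81 in oligodendrocyte-gated and 0.63 in astrocyte-gated nuclei. Whether the neurons that carry Cartpt contributed was not tested.

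**Figure D5:**
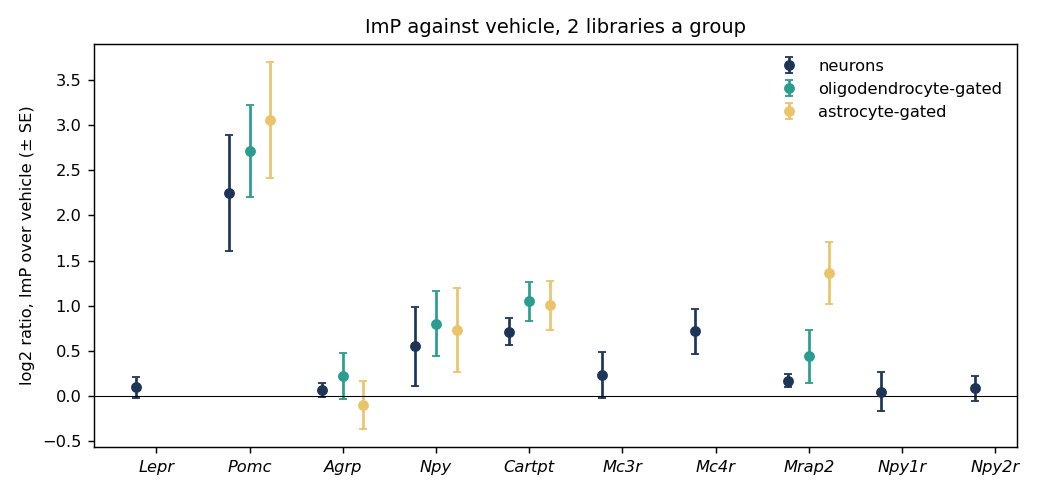
Log2 ratio of ImP over vehicle (edgeR, ± SE, 2 libraries a group) for each gene that passed the filter on low counts, in neurons without pituitary marks, oligodendrocyte-gated and astrocyte-gated nuclei, with a line at 0. Pomc and Cartpt have ratios above 0 in all 3 classes, no point passed the threshold, and Lepr, Agrp, Npy1r and Npy2r lie within 0.1 of 0 in neurons.

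None of the receptors and remaining peptides passed in neurons. Lepr was at 0.09 ± 0.11, Agrp at 0.06 ± 0.08, Npy1r at 0.04 ± 0.22 and Npy2r at 0.08 ± 0.14, with edgeR adjusted p between 0.876 and 0.977. Without ImP 4 they were -0.030, -0.017, -0.33 and -0.077, so all 4 of these ratios changed sign. Npy was at 0.55 ± 0.44 (edgeR adjusted p = 0.808), at -0.34 without ImP 4 and at 1.11 without ImP 3. Mc4r was at 0.72 ± 0.25 (edgeR adjusted p = 0.527), close to the ratio of Cartpt, at 0.48 without ImP 4 and at 0.93 without ImP 3. Mrap2 was at 0.17 ± 0.07 and Mc3r at 0.23 ± 0.26 (edgeR adjusted p = 0.658 and 0.861), and without ImP 4 at 0.11 and 0.20. Fewer cells that express a gene and less RNA per cell cannot be told apart in these sums.

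Among glia, Pomc passed in OPC-gated nuclei only. There its levels were 30.6, 38.9, 74.2 and 323 CPM (Vehicle 1 and 2, then ImP 3 and 4), and the log2 ratio was 2.48 ± 0.31 with an edgeR adjusted p of 9.5e-11, where 0.729% of 6447 genes passed. DESeq2 passed 0 genes in OPC-gated nuclei, and without ImP 4 the ratio was only 1.10. Gh in the same nuclei was at 15.3, 5.98, 35.8 and 1998 CPM. In astrocyte-gated nuclei 0% of 10279 genes passed (989 below an unadjusted 0.05, 1 by DESeq2), in oligodendrocyte-gated nuclei 0% of 11350 (1185 and 0), and in microglia-gated nuclei 0% of 3509 (353 and 0). Of the 10 genes, 5, 5, 3 and 1 were tested in astrocyte-, oligodendrocyte-, OPC- and microglia-gated nuclei. Mrap2 in astrocyte-gated nuclei was at 14.1, 17.0, 31.0 and 49.2 CPM, from 15, 15, 29 and 41 UMIs, with a log2 ratio of 1.36 ± 0.35 and an edgeR adjusted p of 0.235, and a ratio of 1.00 without ImP 4. Tanycyte-gated nuclei were too few to fit, with 8, 9, 8 and 25 nuclei.

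Within Agrp-carrying neurons 0% of 6797 genes passed by edgeR, 312 had an unadjusted p below 0.05 and DESeq2 passed 0. Npy had a log2 ratio of 0.09 ± 0.35 there and Lepr of 0.56 ± 0.55, with edgeR adjusted p of 1.0 and 0.965. Without ImP 4 they were -0.71 and -1.12, so both changed sign. Agrp itself chose these nuclei and is not read, and nuclei with background Agrp only may be among them.

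Within Pomc-carrying neurons at 3 or more UMIs, 5.77% of 5099 genes passed, and 3 of the 4 testable genes other than Pomc were among them. Lepr was at 149, 211, 93.4 and 31.8 CPM (Vehicle 1 and 2, then ImP 3 and 4), with a log2 ratio of -2.21 ± 0.33 and an edgeR adjusted p of 2.6e-04. Cartpt was at 734, 337, 210 and 105 CPM, with -2.07 ± 0.33 and an edgeR adjusted p of 5.3e-04. Npy1r was at 177, 103, 58.4 and 29.2 CPM, with -2.09 ± 0.34 and an edgeR adjusted p of 5.6e-04. All 3 were lower in both ImP libraries than in both vehicle libraries, and ImP 4 was the lowest. DESeq2 passed none of the 3, with adjusted p of 0.133, 0.319 and 0.154 in the same order. Without ImP 4 the ratios were -0.91 for Lepr, -1.33 for Cartpt and -1.24 for Npy1r, each smaller in size.

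These 3 calls moved with the threshold that defines a Pomc neuron, and the threshold of 10 UMIs was chosen after the distribution of Pomc UMIs was seen. The 419 nuclei of ImP 4 had a median of 3 Pomc UMIs, against 8 and 7.5 in the vehicle libraries and 4 in ImP 3, and carried Gh at 1291 CPM, near the 1139 CPM of all its neurons. At 5 or more Pomc UMIs, with 33, 32, 9 and 78 nuclei, all 3 genes were still lower in both ImP libraries: Lepr was at 155, 258, 36.9 and 91.2 CPM, Cartpt at 873, 411, 406 and 264 CPM and Npy1r at 222, 135, 73.8 and 91.2 CPM. At 10 or more, with 18, 16, 6 and 33 nuclei, Lepr was at 135, 232, 0 and 108 CPM, Cartpt at 1206, 430, 604 and 404 CPM and Npy1r at 288, 174, 121 and 142 CPM. The log2 ratios were then -0.87, -0.82 and -0.72, each with an edgeR adjusted p of 0.745. The shares of these nuclei with Lepr were 50% (26.0 to 74.0%), 43.8% (19.8 to 70.1%), 0% (0 to 45.9%) and 27.3% (13.3 to 45.5%), with intervals that overlap. A difference of Lepr, Cartpt or Npy1r in Pomc-rich neurons was not detectable at this depth.

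Other genes of the circuit, in 6 lists of leptin signalling, prohormone processing, melanocortin accessory and signalling genes, other NPY-family genes, transcription factors and further receptors, were read in neurons without pituitary marks. None passed in either direction by edgeR: 0 of 11 leptin signalling genes, 0 of 7 prohormone processing genes, 0 of 6 melanocortin, 0 of 2 NPY-family, 0 of 7 transcription factors and 0 of 6 receptors tested. Their median log2 ratios were 0.03, 0.12, 0.00, -0.01, 0.05 and 0.12, beside -0.01 over all genes tested. An unadjusted p below 0.05 was found for 1, 3, 1, 0, 0 and 0 genes of these lists, beside 8.02% of all genes tested. Both ImP libraries lay above both vehicle libraries for 2, 3, 2, 0, 1 and 1 genes and below for 0, 0, 1, 0, 0 and 0, beside the 18.5% and 20.8% of all genes. Cpe, the carboxypeptidase that trims peptides after cleavage, was at 274, 288, 324 and 331 CPM (log2 ratio 0.23 ± 0.06, edgeR adjusted p = 0.361), and Pcsk1n, the inhibitor of the convertase PC1/3, at 281, 316, 353 and 487 CPM (log2 ratio 0.51 ± 0.15, edgeR adjusted p = 0.428). Among leptin signalling genes Irs2, an adaptor of insulin and leptin signalling, was at 19.7, 19.2, 22.6 and 25.4 CPM with a log2 ratio of 0.31 ± 0.09 (edgeR adjusted p = 0.407), and Irs4, its relative, at 0.14 ± 0.11, while the transcription factor Stat5b was at -0.04 ± 0.07 and Jak2, the kinase bound to the leptin receptor, at -0.05 ± 0.08. Gnas, the G protein subunit through which melanocortin receptors signal, was at 0.25 ± 0.10 (edgeR adjusted p = 0.602), Sdc3 at 0.16 ± 0.07, Kcnj13 at -0.10 ± 0.13 and Mgrn1 at -0.04 ± 0.06. The NPY receptors Npy6r and Npy5r were at 0.01 ± 0.39 and -0.02 ± 0.13. Among transcription factors Bsx, found in Agrp neurons, was at 0.30 ± 0.24, Tbx3 at 0.22 ± 0.28, Prdm12 at -0.26 ± 0.26 and Nhlh2 at -0.16 ± 0.22. Among receptors Ghsr, the ghrelin receptor, was at 0.69 ± 0.40, Glp1r at 0.34 ± 0.27, the insulin receptor Insr at -0.03 ± 0.06 and the serotonin receptor Htr2c at -0.02 ± 0.09.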

How the data were processed

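Single-nucleus UMI counts of 4 hypothalamus libraries were used. The deposited values are whole-number counts of UMIs per gene and barcode. Per the submitters' processing notes, Cell Ranger 8.0.1, Seurat 5.0.0 and the build GRCm39 were used, while annotation release, intronic reads and the authors' filters are not stated there. Nuclei with under 500 genes or over 5% mitochondrial UMIs were left out, and the highest Scrublet scores (scanpy 1.11.5) were removed at 0.8% per 1000 barcodes, 1013 to 2138 nuclei a library.

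Neurons had 3 or more Snhg11 UMIs and no pituitary marks. Other nuclei joined a glial or vascular class at 3 or more different markers and 2 more than of any other class. UMIs were summed per library and class and tested with edgeR 4.0.16 in R 4.3.3 (quasi-likelihood test, TMM factors, minimum count of 10, Benjamini-Hochberg over all genes tested), with 2 residual degrees of freedom, where each library had 20 or more nuclei. The fit at 10 or more Pomc UMIs did not meet that minimum, with 18, 16, 6 and 33 nuclei in Vehicle 1, Vehicle 2, ImP 3 and ImP 4. Fits with the library-name block or with a library left out had fewer residual degrees of freedom. SEs were taken from the test statistic. DESeq2 1.42.0, other factors, filters, gates, a library-name block and libraries left out were alternatives, and the procedure was tested on simulated counts. Shares carry exact 95% intervals, and a count of 0 allows up to 3 counts of the total, both for counting error only. The 10 genes, 6 gene lists, markers and rules were chosen with earlier results of these data known. The text names the 10 genes, the 2 genes of smallest p in each direction in each list and the 5 genes most like each of them, of which it prints the first few.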

Additional observations from a re-analysis of the deposited data

How the results depend on the processing

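With 2 libraries a group the calls depended on which libraries and which tool were used. Leaving out 1 library at a time (the lone library of a group is then assumed to vary like the other pair) gave 0 to 1732 passing genes in neurons and 0 to 1646 in neurons without pituitary-marked nuclei, with 0 to 4 of the 10 genes in each. The highest counts came without ImP 3, and without ImP 4 there were 356 and 387 genes and 2 of the 10. The same ranges for the 10 genes were 0 to 3 over all kept nuclei, 0 to 4 in astrocyte-gated, 0 to 3 in oligodendrocyte-gated, 0 to 1 in OPC-gated, 0 to 1 in microglia-gated nuclei, 0 to 1 in Agrp neurons and 1 to 3 in Pomc neurons. Shares of all genes that passed in the same fits are not given for these classes. The main fits tested only 5, 5, 3 and 1 of the 10 genes in astrocyte-, oligodendrocyte-, OPC- and microglia-gated nuclei. A lone library also holds no spread of its own, so these ranges are not read as results about the 10 genes. DESeq2 passed 314 and 312 genes in neurons with and without pituitary-marked nuclei and 1 of the 10 in each, 1 over all kept nuclei, and 0 in OPC-gated nuclei and Pomc neurons. The library-name block passed 863 and 1091 genes and 2 of the 10 in each. In neurons, keeping doublets and leaving out nuclei that meet a glial or vascular rule each passed 1 gene, and thinning to 2000 UMIs passed 3. Without pituitary-marked nuclei, keeping doublets passed 1, thinning 3 and the wider pituitary gate 2. The cause of these differences was not tested.

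Of 227 log2 ratios recomputed, 184 kept direction and side of the threshold, 23 passed anew, 10 no longer passed and 10 changed sign. Leaving out 1 library at a time, neurons gave -0.030 to 0.22 for Lepr, -0.017 to 0.15 for Agrp, -0.34 to 1.11 for Npy, -0.33 to 0.35 for Npy1r and -0.077 to 0.24 for Npy2r, each lowest without ImP 4 and highest without ImP 3. Npy in oligodendrocyte-gated nuclei gave -0.014 to 1.34, and in Agrp neurons Npy gave -0.71 to 0.48 and Lepr -1.12 to 1.09. Npy in Agrp neurons was also below 0 without Vehicle 1 (-0.31), and Npy1r in neurons was -0.091 with the wider pituitary gate. A threshold of 10 Pomc UMIs, chosen after the distribution was seen, left 33 in place of 419 neurons in ImP 4 and passed 0 of the 10 genes in Pomc neurons. The wider pituitary gate, which needs 1 factor UMI or 5 hormone UMIs, put 73.5% in place of 14.8% of the Pomc UMIs of ImP 4 in pituitary-marked nuclei. Of the 90 ordered pairs, 10 in place of 46 had the higher share in all 4 libraries at 5 peptide and 2 receptor UMIs, and 25 with the second gene thinned. The replicate numbers of the labels differ between the groups, so the only pairing tried was the library-name block, by a number in the library names whose meaning the labels do not give. Tanycyte-gated nuclei were not fitted.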
